A study of Mus musculus with 6 samples.

Results

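Hox genes encode homeodomain transcription factors that give cells their position along the body axis. The members described here are the genes whose symbol is Hox followed by a cluster letter from a to d and a paralog number. These were 33 of the 18268 genes in the table, and 18 of them were among the 12072 genes with enough signal to be tested. Transcript levels were measured by RNA sequencing in the colorectum of adult male C57BL/6 mice whose colitis was caused by dextran sulfate sodium (DSS), which damages the lining of the bowel. Each of the 6 mice had 7 days of DSS and was gavaged over 6 days with berberine (BBR), an alkaloid found in plants (n = 3), or with sulfasalazine (SASP), an established colitis drug of the aminosalicylate class (n = 3). No healthy or untreated colitis mouse was part of the comparison, which is between the drugs alone. The labels name the same tissue for all 6 mice, whereas the text of the study speaks of rectal samples for its BBR sequencing and of colon samples for its SASP sequencing. The study names another series as well, and does not say whether the rectal wording covers the BBR mice compared here. If the pieces came from different levels of the gut, that difference and the drug cannot be told apart, and the Hox genes of each mouse are given here as a description of position.

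Mouse Hox genes lie in 4 clusters, and genes with the same paralog number in different clusters descend from one ancestral gene. Within a cluster the low numbers are used toward the head and the high numbers toward the tail, and the Abdominal-B related groups 9 to 13 mark the hindgut. Hox proteins bind DNA together with TALE cofactors such as Pbx and Meis proteins, are induced in the embryo by retinoic acid and Cdx factors, and are held on or off by Trithorax and Polycomb complexes.

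Start regions of 3 genes are shown because the results turn on these genes: Hoxa7 was the gene that passed the test, Hoxa11 was above Hoxa13 in each BBR mouse and below it in each SASP mouse, and Hoxd13 was the tested gene with a negative fold change. The sequences are from RefSeq on GRCm38.p6, run 5′ to 3′ on the strand of the gene and end before its first annotated exon. Capitals mark TTTATG, the letters of a sequence that Cdx factors are known to bind. They cover chr6:52218712-52218823 on the minus strand for Hoxa7, chr6:52245811-52246060 on the minus strand for Hoxa11 and chr2:74667975-74668224 on the plus strand for Hoxd13.
Hoxa7: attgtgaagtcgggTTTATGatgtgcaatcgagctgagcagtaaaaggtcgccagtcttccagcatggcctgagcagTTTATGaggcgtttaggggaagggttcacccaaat
Hoxa11: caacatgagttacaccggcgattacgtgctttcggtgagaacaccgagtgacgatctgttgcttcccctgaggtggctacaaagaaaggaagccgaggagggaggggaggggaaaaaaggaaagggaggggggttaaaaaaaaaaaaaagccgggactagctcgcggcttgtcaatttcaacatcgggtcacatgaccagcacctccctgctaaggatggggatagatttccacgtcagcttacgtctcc
Hoxd13: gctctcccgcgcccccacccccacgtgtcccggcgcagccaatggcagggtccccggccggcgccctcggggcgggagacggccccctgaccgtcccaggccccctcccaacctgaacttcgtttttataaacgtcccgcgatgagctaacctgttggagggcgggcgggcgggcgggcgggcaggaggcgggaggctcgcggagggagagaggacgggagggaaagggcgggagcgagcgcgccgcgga
The Hoxa7 stretch held 2 matches in 112 bases, and the stretches of Hoxa11 and Hoxd13 held 0 in 250 bases each. Only TTTATG and its reverse complement were searched, so a count of 0 says nothing of other sequences that Cdx factors may bind. The Hoxd13 stretch had 74.4% G and C and 31 CpG sites, against 52.0% and 13 for Hoxa11. Windows of 300 bases, from 250 before to 50 after an annotated start, were found for 21 of the 33 Hox genes, with 23 windows in all. TTTATG or its reverse complement CATAAA occurred in 5 of these 23 windows (21.7%), those of Hoxa7, Hoxb8, Hoxd3, Hoxd4 and 1 of the windows of Hoxd11. The share among all 32851 windows was 11.9%. Hoxa7, Hoxb8 and Hoxd4 held 2 matches each, whereas 1.27% of all windows held as many. These matches describe letters only, and no binding was measured.

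Transcript levels are given as FPKM, which divide the fragments of a gene by its transcript length and by the mapped reads, so levels can be compared between genes. Hox signal was concentrated at the tail end of the clusters in every mouse. Hoxb13, a group 13 gene that marks the most posterior gut, had the highest level of all Hox genes in all 6 mice. The FPKM of Hoxb13 was 264, 300.2 and 151 in BBR mice 1, 2 and 3, and 199, 168 and 199 in SASP mice 1, 2 and 3. BBR mice 1 and 2 lay above the SASP mice and BBR mouse 3 lay below them, so the groups overlapped. Hoxd13, the group 13 gene of the Hoxd cluster, came next in all 6 mice. Its FPKM was 44.1, 66.9 and 37.9 in the BBR mice and 58.5, 48.9 and 69.0 in the SASP mice, and the groups overlapped as well. Hoxa13, a gene required for formation of the hindgut end, was at 21.0, 24.7 and 11.7 FPKM in the BBR mice and at 14.1, 17.1 and 16.4 FPKM in the SASP mice. The single listed gene of group 12, Hoxd12, was far lower, at 2.06, 2.88 and 0.85 FPKM against 0.61, 1.13 and 1.01 FPKM.

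The Hoxa cluster was led by Hoxa10, at 27.7, 25.6 and 19.5 FPKM in the BBR mice and 17.9, 17.9 and 19.3 FPKM in the SASP mice. The order of the genes below Hoxb13 and Hoxd13 was not the same in every mouse. Hoxa11 was the third highest Hox gene in BBR mice 1 and 2, whereas Hoxa10 held that place in BBR mouse 3 and in the 3 SASP mice. Hoxa13 was above Hoxa11 in each SASP mouse and below it in each BBR mouse. The group means of Hoxa3, Hoxa5, Hoxa6, Hoxa7, Hoxa9, Hoxb9, Hoxd10 and Hoxd11 lay between 3.48 and 11.1 FPKM, and those of Hoxa2, Hoxb3, Hoxb5 and Hoxd9 between 0.807 and 2.16 FPKM.

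The Hoxc cluster and most genes of groups 1 to 8 outside the Hoxa cluster were below or near 1 FPKM. All 11 listed genes of groups 9 to 13 passed the filter of 1 FPKM in at least 3 mice, whereas 7 of the 22 listed genes of groups 1 to 8 did. The highest value of any of the 15 genes below the filter was 2.21 FPKM, for Hoxb2 in BBR mouse 2. Hoxc4, the highest of the 4 listed Hoxc genes, was at 0.08, 0.28 and 0.43 FPKM in the BBR mice and at 0.04, 0.34 and 0.12 FPKM in the SASP mice. The other listed Hoxc genes, Hoxc5, Hoxc6 and Hoxc8, and also Hoxb1, stayed at or below 0.12 FPKM, with at least 1 mouse of each group listed at 0. Hoxc9, Hoxc10, Hoxc11, Hoxc12, Hoxc13 and Hoxd1 were not analysed here. By an estimate of depth, 1 read on a transcript of 2000 bases stood for 0.0275 to 0.0305 FPKM, and no Hox gene below the filter had more than 113.6 reads in a mouse. Hoxb13 had 5604 to 10862 reads by the same estimate.

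**Figure D1:**
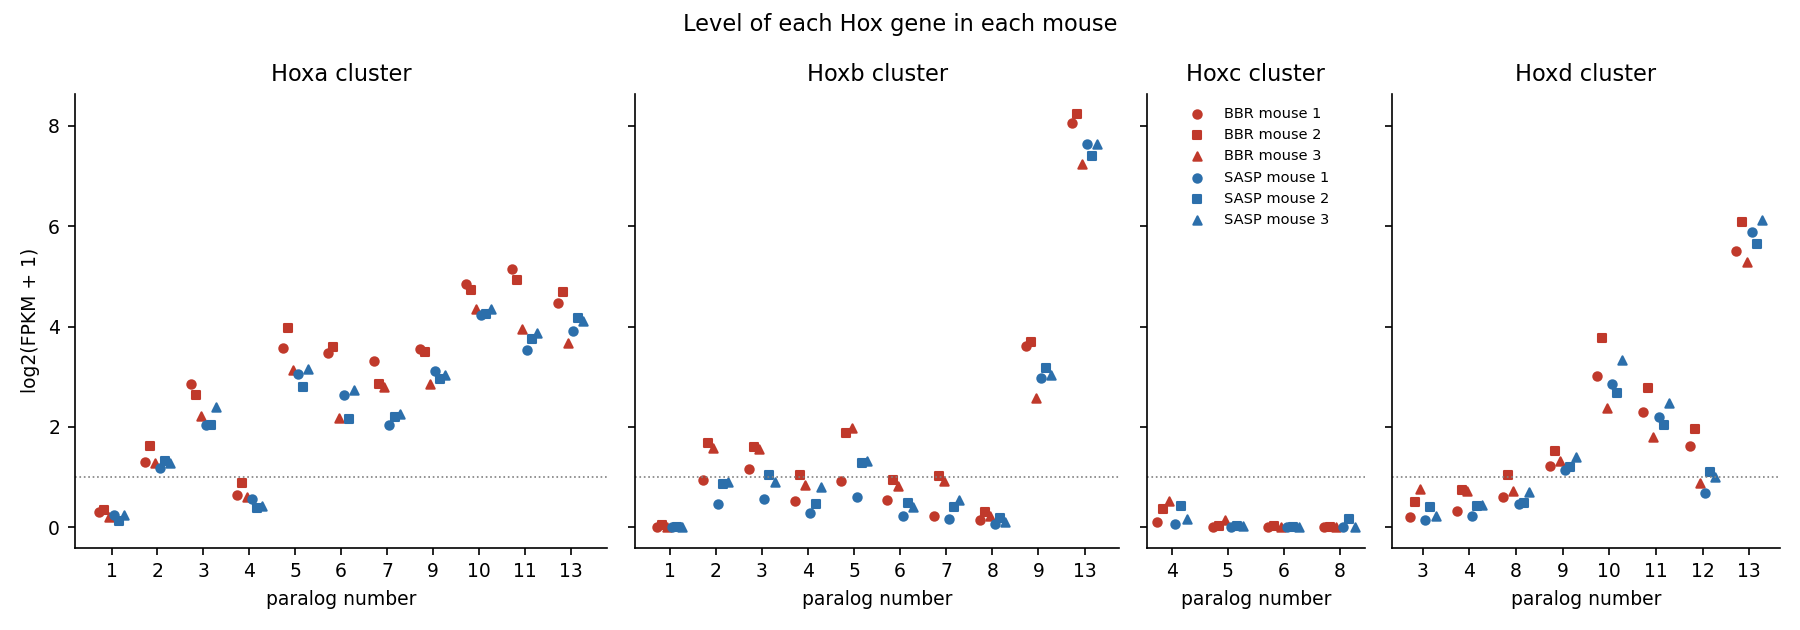
Level of each of the 33 Hox genes in each mouse, as log2(FPKM + 1) on the vertical axis, by cluster (panels) and paralog number (horizontal axis). Red marks are BBR and blue marks SASP mice, the circle, square and triangle are mice 1, 2 and 3, and the dotted line is 1 FPKM. Hoxb13 is highest in each mouse, followed by Hoxd13, but the levels do not climb steadily with paralog number. In each mouse Hoxa13 lies below Hoxa10, Hoxb8 below Hoxb5 and Hoxd12 below Hoxd10.

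BBR and SASP were compared to find whether Hox levels differed between the drugs. Hoxa7, a central Hox gene, was higher in colitis mice receiving BBR, and no other Hox gene passed the test. The FPKM of Hoxa7 was 8.96, 6.23 and 5.98 in the BBR mice and 3.10, 3.61 and 3.78 in the SASP mice. The groups did not overlap. The mean was 7.06 ± 1.65 against 3.50 ± 0.354 FPKM (SD, n = 3 each), a ratio of 2.02. On the log2(FPKM + 1) scale Hoxa7 rose by 0.83 (SE 0.17) in BBR, with an adjusted p of 0.0365 in limma with Benjamini-Hochberg adjustment over all tested genes. Thus 1 of 18 tested Hox genes was higher in BBR, where 3.82% of all tested genes were. None of the 18, a count of 0, was lower, where 5.04% of all tested genes were. At an unadjusted limma p under 0.05, 5 Hox genes were higher (Hoxa5, Hoxa7, Hoxa10, Hoxa11 and Hoxb3) and 0 were lower, where 18.4% of all tested genes were higher and 13.4% lower. The call of Hoxa7 was lost when any mouse other than BBR mouse 3 was left out, with adjusted p from 0.0725 to 0.149, although its log2 fold change stayed between 0.66 and 0.92.

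Most Hox fold changes were positive but within the spread between mice. The log2 fold change (BBR minus SASP) was above 0 for 17 of 18 tested Hox genes, where 60.8% of all tested genes were above 0. It was above 0 for 14 of the 18 after quantile scaling and for 13 with array quality weights. Its median over the 18 genes was 0.33, against 0.10 over all tested genes. The Hox median was 0.52 without BBR mouse 3 and 0.58 when the smooth muscle score entered the fit as a covariate. Medians were larger over the tested markers of smooth muscle (1.215), fibroblasts (0.84) and enteric neurons and glia (0.58), and every value there was positive. The 6 tested leukocyte markers were all negative, with a median of -0.51. Every BBR value lay above every SASP value for 4 of the 18 genes, Hoxa7, Hoxa10, Hoxa11 and Hoxb3, where 21.3% of all tested genes did so. No tested Hox gene had every BBR value below every SASP value, where 16.6% of all tested genes did. Among the 15 Hox genes below the filter, Hoxa4, Hoxb2 and Hoxb6 had every BBR value above every SASP value, and 13.1% of all genes below the filter did. The mean of these untested genes was higher in BBR for 14 and lower for 1, Hoxc8.

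Hoxa11, a posterior gene best known for limb and uterus patterning, had the largest log2 fold change of the tested Hox genes with a pseudocount of 1 but did not pass the test. With a pseudocount of 0.1 Hoxb3 came first, at 1.04 against 1.005 for Hoxa11. Its FPKM was 34.4, 29.4 and 14.5 in the BBR mice and 10.6, 12.4 and 13.7 in the SASP mice. BBR mice 1 and 2 stood well above the others, and BBR mouse 3 was just above the highest SASP mouse. The log2 fold change was 0.96 (SE 0.30, adjusted p = 0.0843 in limma). The reading strand of the libraries is not stated, so reads of Hoxa11 and of its antisense neighbour Hoxa11os cannot be told apart. Hoxa10 had a log2 fold change of 0.37 (SE 0.14, adjusted p = 0.131), and its BBR values lay above its SASP values by a narrow gap, 19.5 against 19.3 FPKM. Hoxa11 and the other genes described mouse by mouse beyond Hoxa7, groups 12 and 13 and the leading gene of each cluster were chosen after their values were seen.

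In groups 12 and 13 no gene passed the test in either direction. The log2 fold change was 0.28 (SE 0.25, adjusted p = 0.467) for Hoxb13, 0.20 (SE 0.26, adjusted p = 0.613) for Hoxa13 and -0.27 (SE 0.23, adjusted p = 0.437) for Hoxd13. Hoxd13 was thus the tested Hox gene with a negative value. Hoxd12 had a log2 fold change of 0.56 (SE 0.28, adjusted p = 0.218). The BBR mice spread more widely than the SASP mice for Hoxb13, with an SD of 77.8 FPKM around a mean of 239 against 17.8 around 189.

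By cluster, the median log2 fold change was 0.42 over the 9 tested Hoxa genes, 0.40 over the 4 tested Hoxb genes and 0.10 over the 5 tested Hoxd genes, the last being the same as over all tested genes. All 9 Hoxa and all 4 Hoxb values were positive, and 4 of 5 Hoxd values were. By position in the cluster, the median was 0.56 over the 7 tested genes of groups 1 to 8 and 0.23 over the 11 tested genes of groups 9 to 13. This gap depended on single mice and on the fit. The 2 medians were 0.60 and 0.50 without BBR mouse 3, and 0.61 and 0.55 with the smooth muscle covariate. Without BBR mouse 2 they were 0.38 and 0.03. Of the Hoxa genes toward the head end, the log2 fold change was 0.14 for Hoxa2, 0.42 for Hoxa3, 0.56 for Hoxa5 and 0.57 for Hoxa6, and none of these 4 passed the test (adjusted p from 0.142 to 0.553 in limma). The Hoxd genes 9, 10 and 11 had log2 fold changes of 0.11, 0.10 and 0.06, with adjusted p from 0.641 to 0.894. Scaling the samples by quantiles gave negative values for Hoxa2, Hoxd9 and Hoxd11. Records of 19 of the 33 Hox genes overlap another gene record in RefSeq, such as Hoxa3 with Hoxa4 to Hoxa6 and Hoxd10 with Hoxd11, which leaves the division of reads between them uncertain. Hoxa7, Hoxa13, Hoxb13, Hoxd12 and Hoxd13 overlap none.

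**Figure D2:**
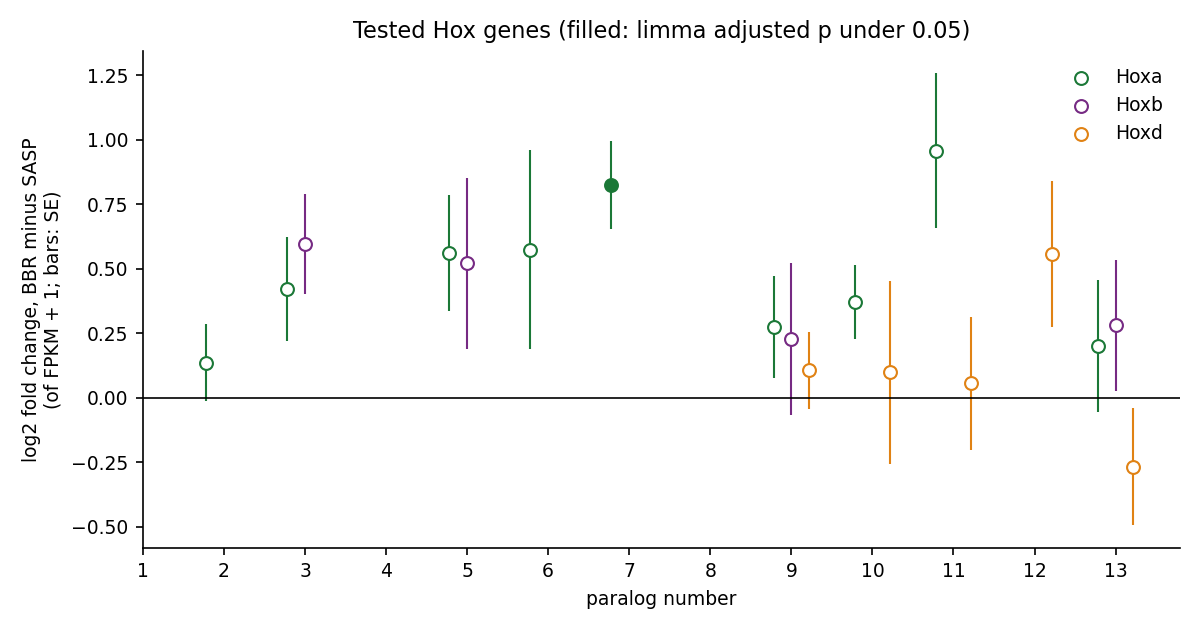
Log2 fold change of FPKM + 1, BBR minus SASP (vertical axis), of the 18 tested Hox genes by paralog number (horizontal axis), with green for Hoxa, purple for Hoxb and orange for Hoxd and bars for the standard error. The filled point is Hoxa7 at 0.83, the 1 gene past the limma threshold, and Hoxd13 at -0.27 is the 1 point below 0.

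Shares of the summed Hox signal differed between the groups more evenly than the levels did. Groups 9 to 13 made up 90.7%, 90.3% and 87.9% of the summed Hox FPKM in the BBR mice and 93.4%, 92.3% and 92.2% in the SASP mice. All BBR shares lay below all SASP shares, with means of 89.6 ± 1.49% and 92.6 ± 0.648% (SD, n = 3 each) and a difference of -2.97 percentage points. With 3 mice a group, an exact permutation test could not give a two-sided p below 0.1, and none was run on sums of the members. The summed FPKM of groups 9 to 13 overlapped, at 428, 492 and 255 in BBR and 326, 290.4 and 348 in SASP. The summed FPKM of groups 1 to 8 did not, at 43.8, 53.0 and 35.0 in BBR and 23.2, 24.1 and 29.6 in SASP, a ratio of the means of 1.71. The lower posterior share thus went with more signal from groups 1 to 8 and not with a lower posterior level in each BBR mouse. The shares did not shift evenly from tail to head. Groups 9 to 12 held more in each BBR mouse, at 20.9%, 18.4% and 18.7% against 15.6%, 17.8% and 16.8%. Groups 5 to 8 did too, at 6.82%, 6.96% and 7.82% against 4.81%, 5.04% and 5.37%. Groups 1 to 4 overlapped, at 2.46%, 2.76% and 4.23% against 1.83%, 2.64% and 2.46%.

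Shares also differed for group 13 alone and between clusters. Group 13 took 69.9%, 71.8% and 69.2% of the Hox signal in the BBR mice and 77.7%, 74.5% and 75.3% in the SASP mice. The Hoxa cluster took 28.1%, 23.9% and 25.8% in BBR and 20.2%, 23.0% and 21.2% in SASP, and the Hoxd cluster took 12.6%, 16.9% and 16.9% against 20.3%, 19.4% and 22.9%. None of these 3 shares overlapped between the groups, while the share of Hoxb13 alone did, at 52.1% to 56.0% in BBR and 52.8% to 57.0% in SASP. The ratio of Hoxb13 to Hoxd13 was 5.99, 4.49 and 3.99 in the BBR mice and 3.40, 3.44 and 2.89 in the SASP mice. The ratio of Hoxa11 to Hoxd11, both of group 11, was 8.75, 5.06 and 5.85 against 2.96, 4.03 and 2.99. The ratio of Hoxb13 to Hoxa13 overlapped, at 12.57, 12.2 and 12.96 against 14.2, 9.87 and 12.2. Other pairs of a Hoxa and a Hoxd gene overlapped between the groups too. The ratio of Hoxa13 to Hoxd13 was 0.477, 0.369 and 0.308 against 0.240, 0.349 and 0.237, that of Hoxa10 to Hoxd10 was 3.89, 2.03 and 4.65 against 2.85, 3.35 and 2.12, and that of Hoxa9 to Hoxd9 ranged from 4.15 to 8 against 4.33 to 6.34. BBR mouse 2 was the lowest of all 6 mice for Hoxa10 to Hoxd10 and BBR mouse 3 for Hoxa9 to Hoxd9. The ratios were chosen after values were seen and are given with no test.

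**Figure D3:**
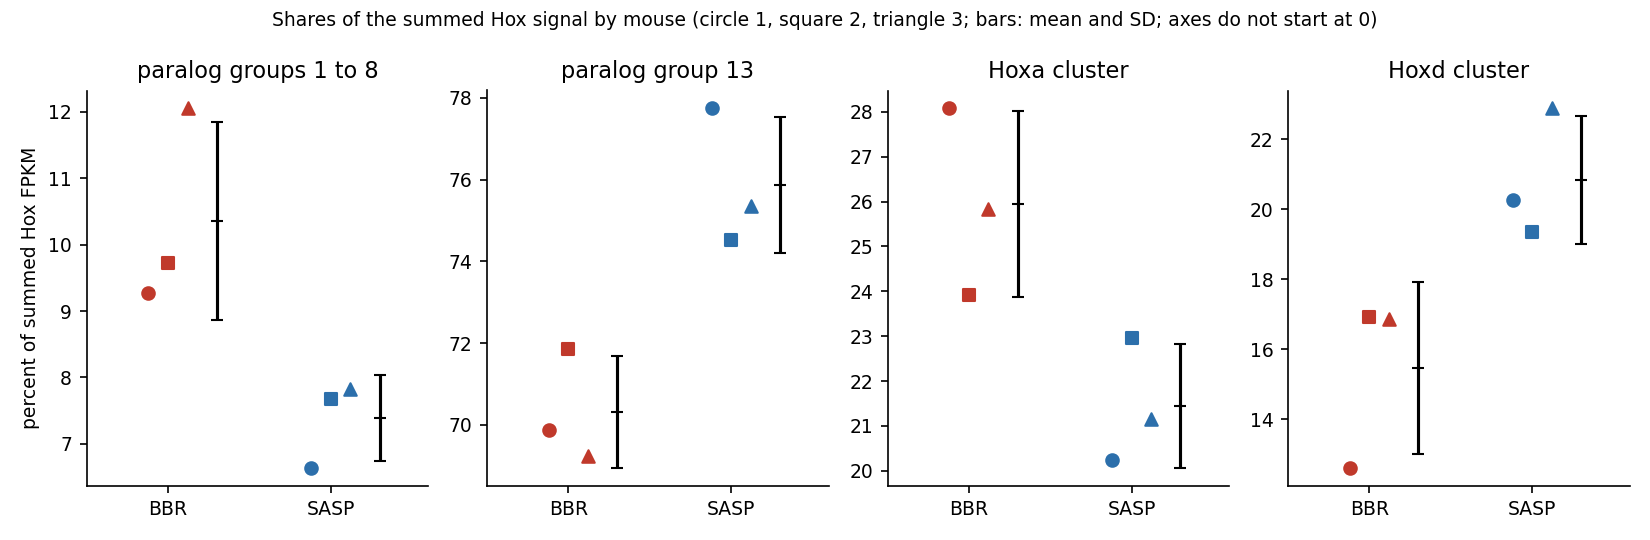
Percent of the summed FPKM of all 33 Hox genes (vertical axes, which do not start at 0) held by paralog groups 1 to 8, paralog group 13, the Hoxa cluster and the Hoxd cluster, by mouse in BBR (red) and SASP (blue), with black bars for the mean and SD of 3 mice. In each panel the 3 BBR marks lie to one side of the 3 SASP marks, above them for groups 1 to 8 and Hoxa and below them for group 13 and Hoxd.

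Hoxb2 to Hoxb8, which pattern the hindbrain, neural crest and trunk, varied between mice in another way than most posterior genes. Their summed FPKM was 4.17, 10.2 and 9.49 in the BBR mice and 1.91, 4.57 and 4.82 in the SASP mice. Mouse 1 was the lowest of its group for all 7 genes in both groups, and SASP mouse 1 was the lowest of all 6 mice for each of the 7. Hoxc4, Hoxd3, Hoxd4, Hoxd8 and Hoxd9 had mouse 1 lowest in both groups too, so this order was not particular to the Hoxb cluster. Hoxd4, for example, was at 0.25, 0.67 and 0.64 FPKM in the BBR mice against 0.16, 0.34 and 0.36 FPKM. Of all tested genes, 13.9% had mouse 1 lowest in both groups. From Hoxb2 to Hoxb8 only Hoxb3 and Hoxb5 were tested, so that share comes from genes of higher level than the rest. Hoxb8 had an estimated 1.9 to 9.9 reads in a mouse. For Hoxb2 the FPKM was 0.91, 2.21 and 2 in BBR and 0.37, 0.82 and 0.86 in SASP, and for Hoxb3 it was 1.22, 2.02 and 1.95 against 0.48, 1.07 and 0.87. Hoxb5, a gene active in enteric neural crest, was at 0.89, 2.68 and 2.92 against 0.52, 1.44 and 1.48 FPKM, with a log2 fold change of 0.52 (SE 0.33, adjusted p = 0.308 in limma). Hoxb3 had a log2 fold change of 0.60 (SE 0.19, adjusted p = 0.0924).

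The summed markers of enteric neurons and glia, of smooth muscle and of fibroblasts were lowest in mouse 1 of both groups as well. All 13 neuron and glia markers were measured, none was at 0 in all mice, and mouse 1 was the lowest of its group for 13 of 13 in both groups. Their summed FPKM was 30.0, 76.1 and 147 in BBR and 17.5, 52.1 and 40.8 in SASP, and 0 of 10 tested markers passed the test in either direction. Vip, a neuropeptide of enteric neurons, was at 9.42, 24.6 and 71.0 FPKM against 4.01, 17.2 and 10.9 FPKM. The summed FPKM of smooth muscle markers was 3783, 4176 and 8723 in BBR and 1086, 3189 and 2420 in SASP, and that of fibroblast markers was 377, 509 and 382 against 177, 293 and 267. The fibroblast sums of BBR mice 1 and 3 were thus close. Not every single marker of these lists was lowest in BBR mouse 1. Actg2 was lowest in BBR mouse 2, at 406 FPKM against 629 FPKM in BBR mouse 1. Dcn was lowest in BBR mouse 3, at 74.0 FPKM against 88.5 FPKM. When the mean level of smooth muscle markers was a covariate, the log2 fold change was -0.24 for Hoxb5 and 0.21 for Hoxb3. Which of these cell types took part in the Hoxb values was not tested. In bulk tissue, fewer cells of a type and less RNA per cell cannot be told apart. With the mean marker level as a covariate, an alternative added after seeing the data, the log2 fold change of Hoxb5 was 0.04 in place of 0.52 and that of Hoxb3 was 0.37 in place of 0.60. Hoxa7 had 0.94 in the same fit, with an adjusted p of 0.0682 in limma.

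**Figure D4:**
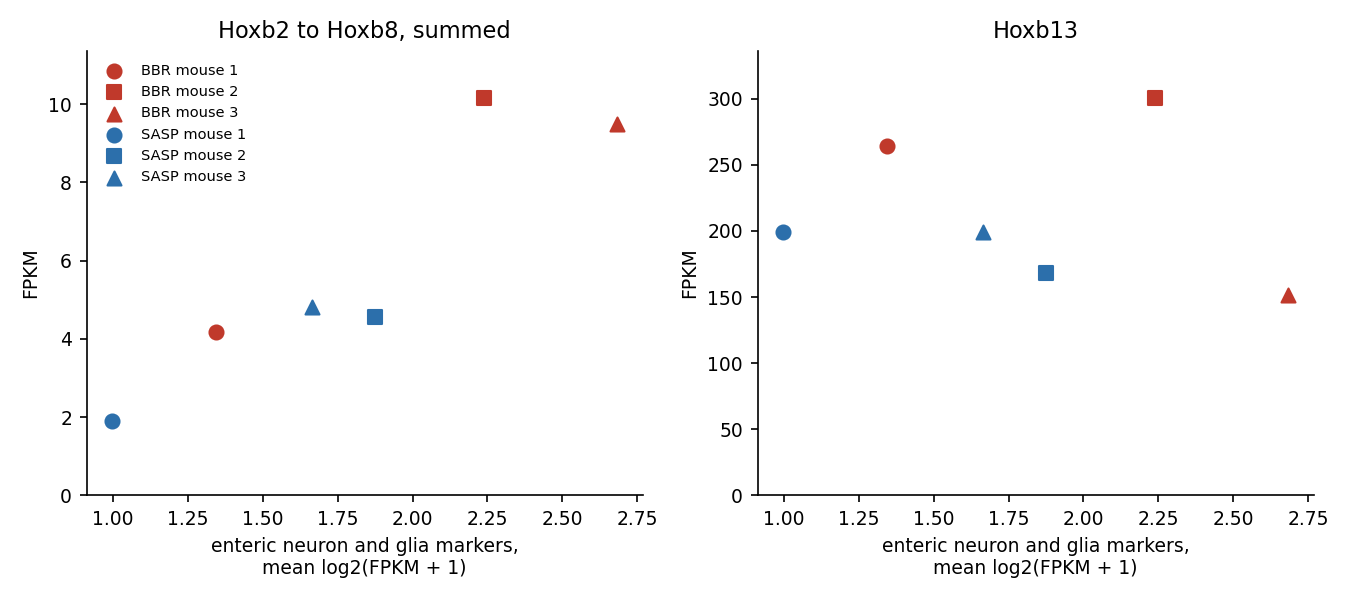
Summed FPKM of Hoxb2 to Hoxb8 (left, vertical axis) and FPKM of Hoxb13 (right, vertical axis) against the mean log2(FPKM + 1) of 13 enteric neuron and glia markers (horizontal axis), 1 mark per mouse, red for BBR and blue for SASP. SASP mouse 1 and BBR mouse 1 are at the left end of their groups and have the lowest Hoxb2 to Hoxb8 sums of their groups, 1.91 and 4.17, while Hoxb13 is lowest in BBR mouse 3 at 151 FPKM.

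BBR mouse 3 was below the other BBR mice for most tested Hox genes outside Hoxb2 to Hoxb8. It was the lowest BBR mouse for 10 of the 11 tested genes of groups 9 to 13 and the lowest of all 6 mice for 7 of them, while 61.8% of all tested genes were lowest in that BBR mouse. Its level divided by the mean of BBR mice 1 and 2 had a median of 0.511 over the 11 genes and ranged from 0.344 for Hoxd12 to 0.947 for Hoxd9. The median over all tested genes was 0.856, with quartiles of 0.697 and 1.05. It was also the lowest BBR mouse for all 5 tested genes from Hoxa2 to Hoxa7, where the ratio was 0.802 for Hoxa2, 0.639 for Hoxa3, 0.603 for Hoxa5, 0.329 for Hoxa6 and 0.787 for Hoxa7. For Hoxb2 to Hoxb8 the same ratio was 1.03 to 1.64, so these genes were not low in that mouse. Nor were Hoxc4, Hoxd3 and Hoxd4, genes below the filter, with ratios of 2.39, 2.46 and 1.39. The 16 smooth muscle markers had a higher sum in BBR mouse 3 than in any other mouse, and the 12 colon epithelium markers summed to 10346 against 7741 to 8542 in the other 5 mice. The epithelium markers did not all go that way. Car1, at 2345 FPKM, and Muc2, at 1168 FPKM, were highest in that mouse. Epcam, at 943 FPKM, and Cdh1, at 380 FPKM, were the lowest of the BBR mice there. The mean log2(FPKM + 1) of the 12 was 8.55 in BBR mouse 3 against 8.14 to 8.45 in the other 5 mice. No smooth muscle marker was at 0, and their part in the Hox values was not tested. Without BBR mouse 3, 11 of 18 tested Hox genes were higher in BBR, where 22.3% of all tested genes were, and 0 were lower. The 11 were Hoxa3, Hoxa5, Hoxa6, Hoxa7, Hoxa9, Hoxa10, Hoxa11, Hoxa13, Hoxb9, Hoxb13 and Hoxd12. For all 11 the mouse left out was the lowest BBR mouse, so this count is not separate evidence of a difference. With any other single mouse left out, 0 Hox genes were higher in BBR.

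**Figure D5:**
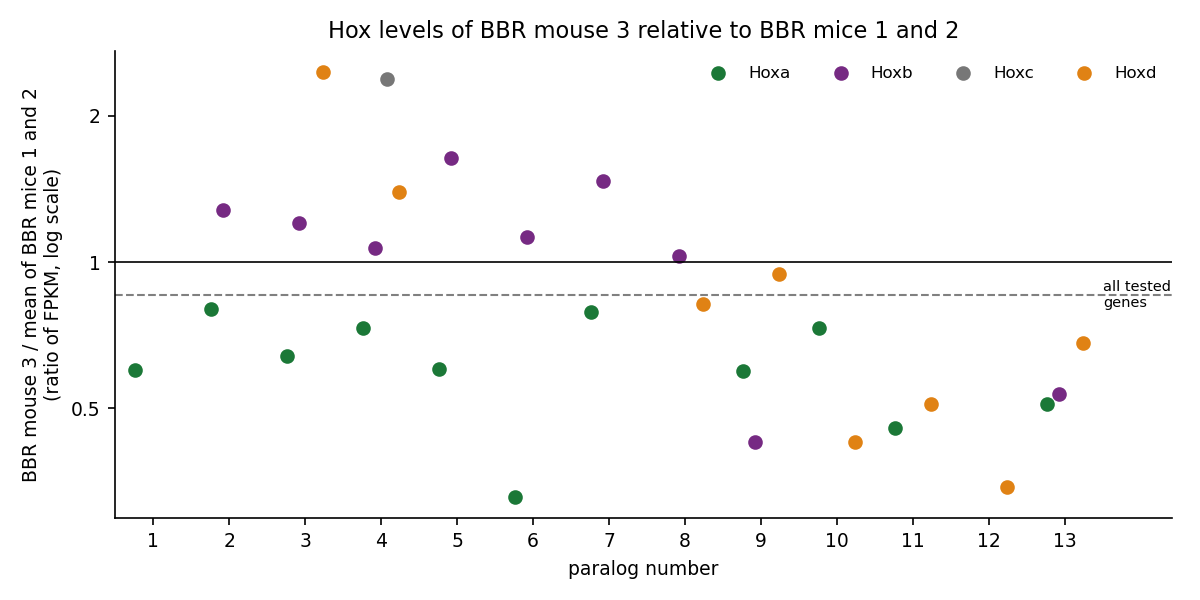
FPKM of each Hox gene in BBR mouse 3 divided by the mean of BBR mice 1 and 2 (vertical axis, log scale), by paralog number (horizontal axis) and coloured by cluster, for genes with a mean of at least 0.1 FPKM in BBR mice 1 and 2. The solid line is 1 and the dashed line is 0.856, the median of all tested genes. Tested genes of groups 9 to 13 lie between 0.344 and 0.947, and Hoxb2 to Hoxb8 lie between 1.03 and 1.64. Hoxc4, Hoxd3 and Hoxd4 lie above 1 as well.

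Partners and regulators of Hox genes were examined next. All 7 tested TALE cofactors of 9 named had positive log2 fold changes, with a median of 0.48, and 0 passed the limma test in either direction. Pbx2, which pairs with Hox proteins on DNA, had a BBR mean of 11.01 FPKM and a SASP mean of 7.37 FPKM, with an adjusted p of 0.208 in limma. Of 9 tested gut patterning factors, 1 was higher, 0 were lower and the median was 0.44. That gene was Cdx2, a homeobox factor that sets intestinal identity and acts upstream of Hox genes, at 22.9, 11.9 and 19.0 FPKM in the BBR mice against 4.69, 9.13 and 3.74 FPKM. The groups did not overlap, and Cdx2 rose by 1.496 on the log2 scale (SE 0.33, adjusted p = 0.0422). Cdx2 no longer passed when BBR mouse 1, BBR mouse 2, SASP mouse 1 or SASP mouse 3 was left out, with adjusted p from 0.0520 to 0.163. The related Cdx1 was at 126, 117 and 83.5 FPKM against 105, 105 and 107 FPKM, and had a log2 fold change of 0.02 (adjusted p = 0.943).

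Of 8 tested retinoid pathway genes, 1 was higher, 0 were lower, and all 8 values were positive with a median of 0.67. Dhrs3, an enzyme that returns retinaldehyde to retinol, was at 28.0, 32.6 and 24.5 FPKM in the BBR mice against 15.7, 20.6 and 13 FPKM, and rose by 0.77 (SE 0.18, adjusted p = 0.0488). Dhrs3 did not pass when BBR mouse 1, BBR mouse 2, SASP mouse 1 or SASP mouse 3 was left out, with adjusted p from 0.110 to 0.174, and under a smaller pseudocount. Of 18 Polycomb and Trithorax genes 0 passed in either direction, with 11 positive and 7 negative values and a median of 0.22. Their most abundant members, Phc2 and Eed, which belong to Polycomb complexes, had log2 fold changes of -0.33 and -0.22 (adjusted p = 0.139 and 0.221 in limma). Of the 6 tested neighbours of the Hox clusters 0 passed in either direction, and their median was 0.04. Ttll6, a tubulin-modifying enzyme gene beside Hoxb13 that was picked out after its values were seen, was at 29.9, 27.2 and 8.86 FPKM in the BBR mice against 6.98, 5.73 and 5.62 FPKM, with a log2 fold change of 1.53 (SE 0.42, adjusted p = 0.0631). Prac1, a gene beside Hoxb13 used as a marker of the distal gut, was not analysed here.

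Markers of neighbouring tissues were set beside the Hox values. Epithelium of the colon was present in each mouse, and the median over its 11 tested markers was 0.04 on the log2 scale. Among these, Krt18, a keratin, was higher in BBR by 0.75 (adjusted p = 0.0163) and Vil1, a brush border protein, was lower (log2 fold change -0.55, adjusted p = 0.0327). The call of Krt18 was lost without BBR mouse 1, SASP mouse 1 or SASP mouse 3, and that of Vil1 without any mouse but BBR mouse 3, with adjusted p from 0.0557 to 0.139. Of 8 measured small intestine markers, 4 stayed below 1 FPKM in every mouse, and Fabp6, an ileal bile acid binding protein, was at 2.96, 3.31 and 0.90 FPKM in the BBR mice against 22.8, 3.16 and 8.77 FPKM (adjusted p = 0.130). SASP mouse 1 was thus the highest for this ileal gene while its share of Hox signal from groups 9 to 13, 93.4%, was also the highest. The other tested genes of the list did not all follow Fabp6. Lyz1 was highest in SASP mouse 1 too, at 10.28 FPKM. Slc10a2 was lowest of all 6 mice there, at 2.5 FPKM, and Mttp was highest in SASP mouse 3, at 3.16 FPKM. Of the 4 tested genes of the list, 1 had a positive and 3 had a negative log2 fold change, with a median of -0.47, and 0 passed in either direction. Of 11 squamous markers, 7 stayed below 1 FPKM in every mouse. Serpinb5, the most abundant of them, was at 25.5, 24.2 and 29.45 FPKM in the BBR mice against 38.2, 43.3 and 31.7 FPKM. It did not pass the test (adjusted p = 0.0709 in limma), and Krt10 was also above 1 FPKM in every mouse. Of 5 urogenital markers, 4 stayed below 1 FPKM in every mouse. The fifth, Upk1a, a uroplakin, was at 10.7, 9.49 and 6.17 FPKM in the BBR mice against 3.53, 3.59 and 4.5 FPKM, and rose by 0.98 (SE 0.20, adjusted p = 0.0366). The call of Upk1a was lost without any mouse but BBR mouse 3, with adjusted p from 0.0931 to 0.148. Of 4 genes of distal colon transport 0 passed in either direction, with 3 positive values and a median of 0.25. The log2 fold change was 0.21, 0.33 and 0.30 for Scnn1a, Scnn1b and Scnn1g, the subunits of the epithelial sodium channel. Atp12a, a proton pump of the distal colon, was at 247, 359 and 589 FPKM in the BBR mice against 813, 696 and 966 FPKM, and its log2 fold change of -1.13 did not pass the test (adjusted p = 0.0657). Of 11 fibroblast markers, 4 were higher in BBR, with Thy1, Col3a1 and Lum having the smallest p. Leukocyte markers summed to 22.02 to 31.9 FPKM in the BBR mice against 33.4 to 65.5 FPKM, and 0 of 6 tested passed in either direction. The part of these tissues in the Hox values was not tested.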

How the data were processed

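RNA sequencing of 6 mice was analysed, 3 per drug, grouped by the treatment label. The labels give no cage or batch, replicate numbers follow accession order, and p-values measure only the spread between these samples. The deposited table holds FPKM, which the authors calculated per gene with RSEM 1.2.12 after alignment with Bowtie2 2.2.5, per the submitters' processing notes, which also name the build mm9. The methods describe ribosomal RNA depletion and single-end reads from DNA nanoballs, whereas the labels name an Illumina library kit, and the table does not settle which was used. Reads shared by several genes are split between those genes by RSEM.

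FPKM were transformed as log2(FPKM + 1), which understates changes of low genes, and genes with at least 1 FPKM in at least 3 samples were tested in limma 3.58.1 (R 4.3.3) with moderated variances and a trend. Two-sided p-values were adjusted by the Benjamini-Hochberg method over 12072 genes, with a threshold of 0.05. No count model was used, because FPKM are not counts. Depth was estimated from genes with transcripts under 1500 bases that were above 0 in 1 sample only. Each such value was taken as 1 read, and the median gave 16400000 to 18200000 reads per sample. Between 11518 and 12307 genes reached 1 FPKM. At most 0.389% of tested genes had identical values in a pair of samples. BBR mouse 3 stood apart from the other BBR mice. Sequences came from RefSeq on GRCm38.p6, not the build of the files, so no other coordinates are given.

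The members and gene lists were chosen with earlier results of these data known. Named mouse by mouse were Hox genes past the threshold, those of groups 12 and 13 and the leading gene of each cluster. From other lists, up to 3 genes past the threshold or the most abundant were named, and Cdx1, Cdx2 and Prac1 in any case. Some genes that this rule selects are not reported here. The steps were tested on simulated data. Alternatives were other pseudocounts (0.1 and 0.01), no filter, a mean of at least 5 FPKM, quantile and median-ratio scaling, no variance trend, array quality weights, smooth muscle or neuron and glia scores as covariates, and leaving out each mouse.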

Additional observations from a re-analysis of the deposited data

How the results depend on the processing

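With 3 mice a group, calls depended on single mice, and genes near 1 FPKM rest on few reads. No paired analysis was possible because the replicate numbers only follow accession order and link no mice across the drugs.

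The count of differing genes, 1069, became 608 with no filter, 1737 with quantile and 1699 with median-ratio scaling, 7126 with array quality weights (4636 higher and 2490 lower in BBR, against 461 and 608), 18 with the smooth muscle score and 188 with the neuron and glia score as covariate. Leaving out 1 mouse gave 51 to 4018 genes, the low end in the absence of SASP mouse 3 and the high end in that of BBR mouse 3. The number of Hox genes higher in BBR, 1, became 11 with array quality weights and 0 with no filter or either covariate, and was 0 to 11 with 1 mouse left out, 11 being without BBR mouse 3. With array quality weights 1 Hox gene was lower, Hoxd13 (log2 fold change -0.50). The cause was not tested. Hoxa7 kept its direction in all 16 alternatives and its call in 8. Its adjusted p was 0.0657 with no filter and 0.220 with the smooth muscle covariate, where its log2 fold change was 0.90 against 0.83.

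With no filter, the median of groups 1 to 8 was 0.25, because 22 genes entered. The median of groups 9 to 13 was 0.03 to 0.50 with 1 mouse left out and 0.55 with the smooth muscle covariate. The difference in the share of groups 9 to 13 was -5.71 points from log2 values and -6.47 without Hoxb13, and -3.51 to -2.12 with 1 mouse left out.

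Signs turned for 6 genes that did not pass the test. Quantile scaling gave -0.016 for Hoxa2, -0.045 for Hoxd9 and -0.069 for Hoxd11, and median-ratio scaling gave -0.013 for Hoxd11. Array quality weights gave -0.20 for Hoxb5, -0.096 for Hoxd9, -0.13 for Hoxd10 and -0.055 for Hoxd11, and the smooth muscle covariate gave -0.24 for Hoxb5. With 1 mouse left out the ranges were -0.0053 to 0.50 for Hoxa13, -0.26 to 0.44 for Hoxd10 and -0.18 to 0.30 for Hoxd11. The calls of Cdx2, Dhrs3, Upk1a, Vil1, Krt18 and the fibroblast genes were lost under several alternatives, each of them with the smooth muscle covariate. In that fit the log2 fold change was 1.24 for Cdx2, 0.77 for Dhrs3, 1.21 for Upk1a, 0.89 for Krt18 and -0.42 for Vil1, while it was 0.44 to 0.54 for the fibroblast genes.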
